A study of Saccharomyces cerevisiae with 4 samples.

Results

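The 57 genes described here make ribosomes or process ribosomal RNA (rRNA) in Saccharomyces cerevisiae. They are the probes of a yeast oligonucleotide array whose standard gene name starts with NOP, UTP, RRP, NSA or RLP and a digit, together with 7 DEAD-box helicases of the DBP family, and they were found among 6336 genes on the array. The names gave 14 NOP, 16 UTP, 16 RRP, 2 NSA, 2 RLP and 7 DBP genes. Each gene was printed on 2 spots, no probe of the group was shared with another gene, and all 57 names matched the same symbol in RefSeq, on 13 chromosomes.

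The study asked how yeast evolved to tolerate heat, acetic acid and acidic pH differs in transcription from its parent when no stress is applied. AT22 was evolved from S288C at low pH with acetic acid. TAT12 was evolved under the same kind of acid conditions from TTY23, which was itself evolved from S288C at elevated temperature, so TAT12 has a history of both conditions. S288C was the parental strain. Each of the 3 evolved strains is a single isolate, so a difference between strains belongs to that isolate. All 4 strains grew in shaken flasks of defined medium with 2% glucose at pH 5.0 and 30 °C, without a stress, and total RNA was taken in mid-exponential growth. Labelled cDNA of a pair of strains was hybridised to 2 arrays with the dyes exchanged, in 4 comparisons: AT22 over S288C, TAT12 over S288C, TAT12 over TTY23 and TAT12 over AT22. Both arrays of a swap count as 1 sample, so each comparison has n = 1, no standard deviation between cultures exists, and the distance between the arrays shows technical spread only.

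Ribosome assembly begins in the nucleolus, where RNA polymerase I makes a long precursor rRNA. The small subunit processome, built from the UtpA, UtpB and UtpC modules and the U3 small nucleolar ribonucleoprotein (snoRNP), folds and cuts the part that becomes the 40S subunit, while NOP, NSA, RLP and further RRP proteins ripen the precursors of the 60S subunit, helicases remodel both, and the exosome trims RNA ends and degrades spacers. In growing yeast these genes form a regulon that is known to follow growth rate and nutrient signals and to be repressed in the environmental stress response.

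The value given for each gene is a log2 ratio, with the evolved strain, or TAT12 where both strains were evolved, on top, and its 2 values in a comparison are those of the first and of the second array. A gene is called where the mean of both arrays lies more than 2 standard deviations from that of the 100 genes nearest in intensity (an intensity-dependent z-score, the threshold of the study's methods). Ratios show the level of a transcript relative to the other transcripts of the same RNA, and levels are not set against each other between genes. The strains compared overlap (S288C, AT22 and TAT12 each stand in more than 1 comparison), so the 4 comparisons are not independent of each other.

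The direction of the second AT22 over S288C array was not settled. With the ratios turned as the labels state, it correlated at −0.59 over all genes with the second array of TAT12 over S288C, and both arrays carry S288C in the same dye. The labels give the dyes of this array, so the labelled direction was kept, and the medians, means, counts and calls of AT22 over S288C are also given with the sign of that array turned. Signals were dim in part. The median spot stood 2.51 to 3.52 times over local background in Alexa555 and 1.22 to 3.09 times in Alexa647, and of the 57 genes, 37 in AT22 over S288C, 27 in TAT12 over S288C, 44 in TAT12 over TTY23 and 26 in TAT12 over AT22 lay above the empty spots (past their 95th percentile) in both dyes of both arrays.

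As a group, the ribosome biogenesis genes stayed near a ratio of 0 in all 4 comparisons, with few calls. In AT22 over S288C their median log2 ratio was 0.02, against 0.03 for all genes, and with the second array turned it was −0.05, against 0.0026. The median was −0.11 in TAT12 over S288C, against 0.02 for all genes. In TAT12 over TTY23 it was −0.06, against 0.0080, and in TAT12 over AT22 it was 0.04, against −0.01. The members lay lowest against all genes in TAT12 over S288C.

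The array medians show how firm these values are. The members' medians on the first and second array were −0.02 and 0.10 in AT22 over S288C (the second −0.10 turned), −0.14 and −0.03 in TAT12 over S288C, −0.13 and −0.09 in TAT12 over TTY23, and 0.01 and 0.10 in TAT12 over AT22. Both arrays were below 0 in the comparisons of TAT12 with S288C and with TTY23, and both were above 0 in TAT12 over AT22. Of the 57 members, 37 were below 0 in TAT12 over S288C (35.1% above 0, against 53.1% of all genes), and in TAT12 over TTY23 39 of 57 were (31.6% above 0, against 52.2%). In AT22 over S288C, 27 of 57 were below 0, and 35 with the second array turned, and in TAT12 over AT22, 25 of 57.

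Many members, like many of all genes, did not keep their sign on both arrays. The number below 0 on both arrays was 12 in AT22 over S288C (21.1%, against 25.4% of all genes, and turned 18, 31.6% against 24.0%), 18 in TAT12 over S288C (31.6%, against 24.8%), 22 in TAT12 over TTY23 (38.6%, against 25.3%) and 8 in TAT12 over AT22 (14.0%, against 20.8%). The number above 0 on both was 19 (33.3%, against 27.5% of all genes, and turned 8, 14.0% against 23.1%), 7 (12.3%, against 25.4%), 9 (15.8%, against 24.7%) and 16 (28.1%, against 21.3%) in the same order. The other 26 (31 turned), 32, 26 and 33 members had opposite signs on the arrays. The share that kept its sign was 54.4% (45.6% turned), 43.9%, 54.4% and 42.1% of members. Among all genes it was 52.9% (47.1% turned), 50.2%, 50.0% and 42.1%. Among the 24 members above the empty spots in every dye of every array, the median was −0.0035 in AT22 over S288C with 12 of 24 below 0 (−0.20 with 14 of 24 turned), −0.15 in TAT12 over S288C with 18 of 24 below 0, −0.15 in TAT12 over TTY23 with 15 of 24 below 0, and 0.17 in TAT12 over AT22 with 9 of 24 below 0.

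**Figure D1:**
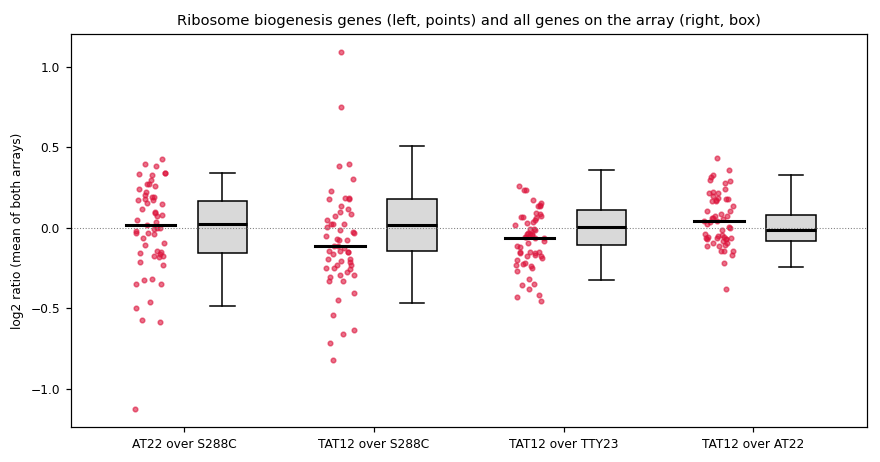
Log2 ratio (vertical axis, mean of both arrays) of the 57 ribosome biogenesis genes, each a point with the median as a black line, left of all 6336 genes as a grey box (quartiles and median, whiskers from the 5th to the 95th percentile), in the 4 comparisons. The members' median is −0.11 in TAT12 over S288C, against 0.02 for all genes, and at least 1 point lies below the lower whisker in each comparison.

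Single members were called 9 times. In AT22 over S288C, 0 members were called up and 2 down, 3.51% of the 57, against 4.62% of all genes called (0.537% up and 4.09% down), and with the second array turned 1 was called up and 4 down, against 4.02% of all genes (1.2% up and 2.83% down). In TAT12 over S288C, 3 were called up and 2 down, 8.77%, against 5.05% of all genes (3.11% up and 1.94% down). In TAT12 over TTY23 none was called, against 5.51% of all genes (3.08% up and 2.43% down), and in TAT12 over AT22 2 were called up and none down, 3.51%, against 4.28% of all genes (3.38% up and 0.9% down). The shares rest on 0 to 5 genes a comparison.

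The fit of limma across all genes called no member. The fit ran over the 4 dye-swap means with 1 residual degree of freedom, and at a Benjamini-Hochberg adjusted p under 0.05 it called 0 members and 0 genes in every comparison (0.0% of all genes), with 0 members at an unadjusted p under 0.05 as well. A limma fit over the 8 arrays with a term for the dye also called 0 members after adjustment, and 4, 2, 3 and 0 members had an unadjusted p under 0.05 in the order given above, beside 6.69%, 9.0%, 5.67% and 3.27% of all genes. With the second AT22 over S288C array turned, 17, 9, 4 and 3 members did in the first kind of fit, beside 19.4%, 13.1%, 7.34% and 10.5% of all genes, and of these members 0 passed after adjustment (1 gene of all did, in TAT12 over TTY23). That array enters the estimates of TAT12 over S288C and TAT12 over AT22 as well, through the strains they share. The estimate of TAT12 over TTY23 is that swap's own mean, so turning the array changed only the variance behind its p. The fit over 8 arrays counts both arrays of a swap separately, so its p rests largely on technical spread.

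DBP7, a DEAD-box helicase that acts on precursors of the 60S subunit, rose in TAT12 against S288C. In TAT12 over S288C its ratios were 1.69 and 0.49, mean 1.09 (z-score 2.24, 2.13-fold), with normalised intensities of 3467 and 698 in TAT12 and 1074 and 498 in S288C. It was the 1 called member above the empty spots in both dyes of both arrays, and TAT12 was higher on each array. The arrays differed by more than 1 log2 unit, and the first array alone gave a z-score of 1.996 and the second 1.33, so neither alone passed the threshold. In the other comparisons DBP7 had ratios of 0.68 and −0.29 in AT22 over S288C (mean 0.19, 0.49 turned), −0.11 and −0.34 in TAT12 over TTY23 (mean −0.22) and −0.33 and −0.42 in TAT12 over AT22 (mean −0.38). TAT12 was therefore below TTY23 and below AT22 on every array, without a call.

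**Figure D2:**
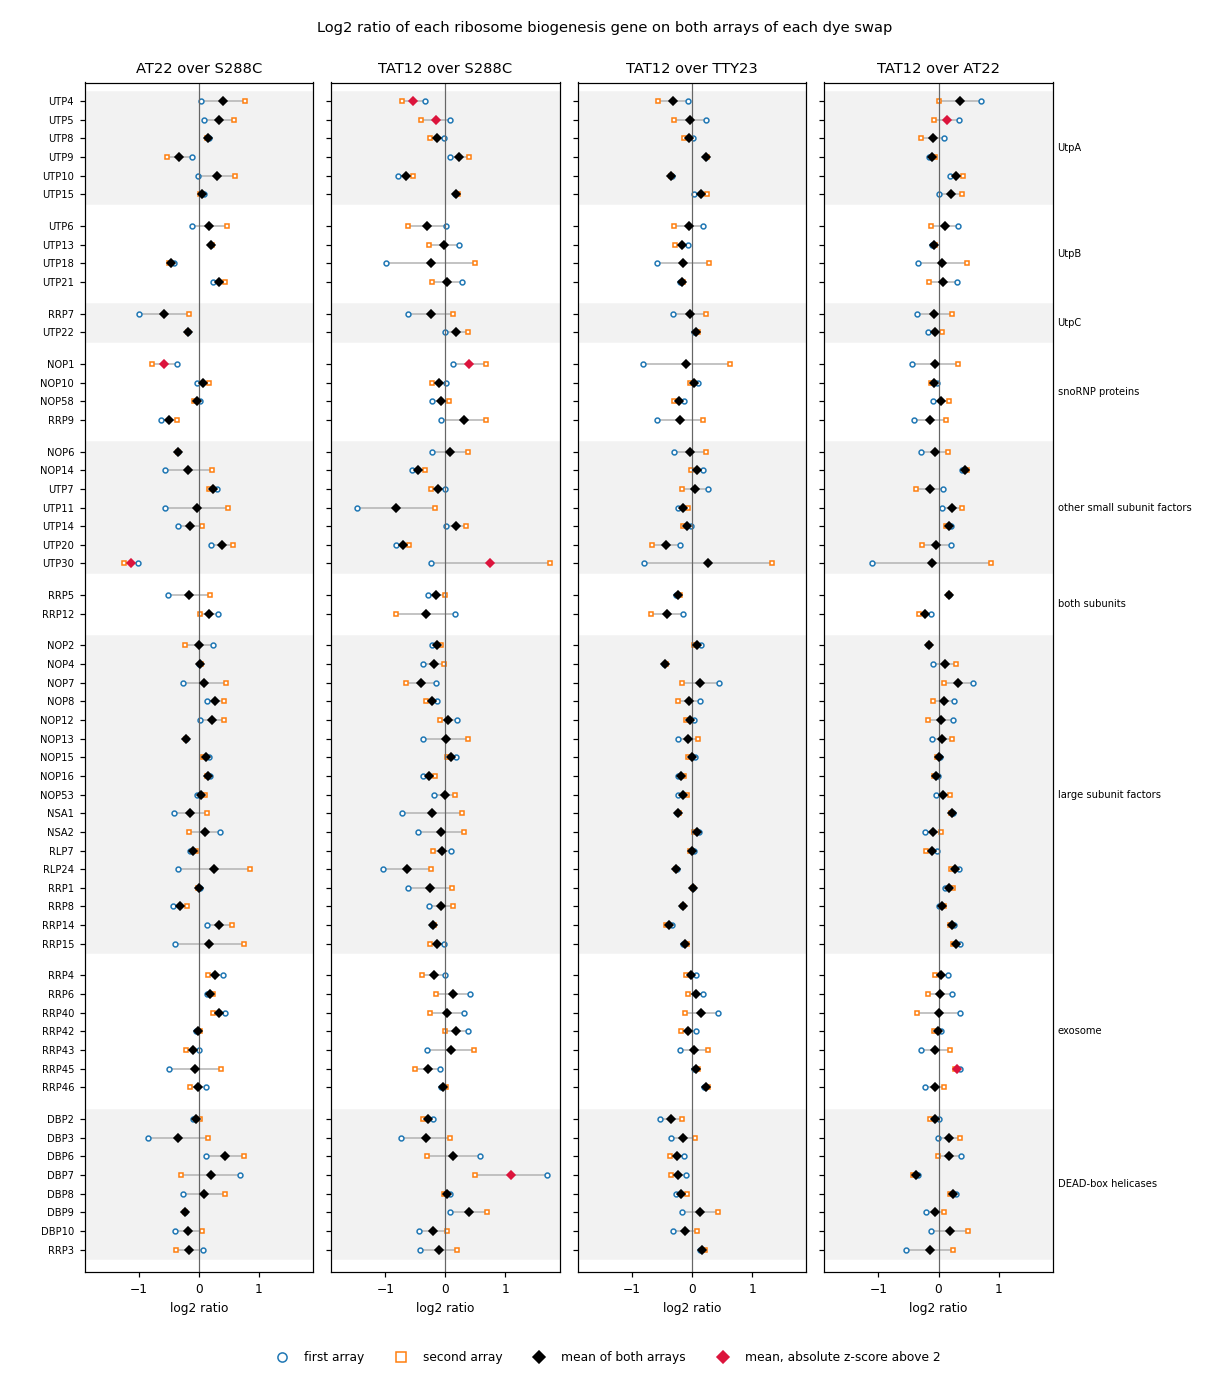
Log2 ratio (horizontal axis) of each of the 57 genes, grouped by role, on the first array (circle) and the second array (square) of each comparison, with the mean of both as a diamond, red where the absolute z-score is above 2. Red diamonds stand at UTP30 and NOP1 in AT22 over S288C, at DBP7, UTP30, NOP1, UTP5 and UTP4 in TAT12 over S288C, at none in TAT12 over TTY23, and at UTP5 and RRP45 in TAT12 over AT22.

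The UtpA module, which binds the nascent precursor rRNA first, was represented by UTP4, UTP5, UTP8, UTP9, UTP10 and UTP15. Its median ratios were 0.22 in AT22 over S288C (−0.11 turned), −0.15 in TAT12 over S288C, −0.05 in TAT12 over TTY23 and 0.17 in TAT12 over AT22. UTP4, a WD-repeat protein of UtpA, had ratios of 0.03 and 0.76 in AT22 over S288C, −0.35 and −0.73 in TAT12 over S288C, −0.06 and −0.57 in TAT12 over TTY23 and 0.71 and 0.0025 in TAT12 over AT22. TAT12 was below S288C on both arrays, with normalised intensities of 123 and 184 in TAT12 and 157 and 305 in S288C, and the mean of −0.54 was a call (z-score −2.14), although TAT12 stood above the empty spots on 1 of 2 arrays only. The means in the other comparisons were 0.40 (−0.36 turned), −0.32 and 0.36, and none of them was called.

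UTP5 was called with small ratios. In TAT12 over S288C its ratios were 0.07 and −0.40 (mean −0.16, z-score −2.20) and in TAT12 over AT22 0.34 and −0.07 (mean 0.14, z-score 2.47). The arrays had opposite signs in both comparisons. UTP5 was not above the empty spots on any of the 8 arrays, so no fold is given. The other 2 comparisons gave 0.09 and 0.58 in AT22 over S288C (mean 0.33, and −0.25 with a z-score of −2.41 turned) and 0.23 and −0.30 in TAT12 over TTY23 (mean −0.04). UTP10, named here after its value was seen, had the lowest ratio of UtpA in TAT12 over S288C, −0.78 and −0.53 (mean −0.66), which was no call.

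Of the UtpB module, which contacts the U3 snoRNP and the precursor, UTP6, UTP13, UTP18 and UTP21 carried matching names. Their medians were 0.19 in AT22 over S288C (−0.06 turned), −0.14 in TAT12 over S288C, −0.16 in TAT12 over TTY23 and 0.07 in TAT12 over AT22. None was called with the labelled directions. UTP6 had ratios of −0.11 and 0.46 in AT22 over S288C, 0.01 and −0.62 in TAT12 over S288C, 0.19 and −0.30 in TAT12 over TTY23 and 0.33 and −0.12 in TAT12 over AT22, with means of 0.18 (−0.28 turned), −0.31, −0.06 and 0.11. The turned value of UTP6 in AT22 over S288C passed the threshold (z-score −2.19). In TAT12 over TTY23 all 4 of these UtpB genes had a mean below 0, down to −0.17.

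Of the UtpC module, UTP22 and RRP7 carried matching names. UTP22 had ratios of −0.19 and −0.18 in AT22 over S288C, −0.0027 and 0.37 in TAT12 over S288C, 0.03 and 0.10 in TAT12 over TTY23 and −0.17 and 0.06 in TAT12 over AT22, with means of −0.18 (−0.0037 turned), 0.18, 0.06 and −0.05. The means lay close to 0 and UTP22 was not above the empty spots in both dyes of any swap. RRP7, named after its value was seen, had −1.0 and −0.17 in AT22 over S288C (mean −0.58, −0.42 turned), which came near the threshold without passing it (z-score −1.91).

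The snoRNP proteins guide or carry out the modification and cutting of rRNA, and 4 were in the group. NOP1 (fibrillarin, the methyltransferase of box C/D snoRNPs) was called in 2 comparisons with opposite signs. In AT22 over S288C its ratios were −0.37 and −0.77, mean −0.57 (z-score −3.54), at normalised intensities of 61.1 and 55.9 in AT22 and 79.0 and 95.6 in S288C. In TAT12 over S288C they were 0.12 and 0.67, mean 0.39 (z-score 2.08), at 112 and 146 in TAT12 and 103 and 91.6 in S288C. With the second array turned the AT22 over S288C value was 0.20 (z-score 2.35), a call in the other direction.

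NOP1 gave −0.81 and 0.63 in TAT12 over TTY23 (mean −0.09) and −0.44 and 0.33 in TAT12 over AT22 (mean −0.06). The arrays thus had opposite signs where TAT12 was set against another evolved strain. NOP1 was above the empty spots in AT22 on none of the 2 arrays with S288C, in S288C on 1 of those 2, and in TAT12 and S288C on 1 of 2 each in their comparison. No fold is given for a gene this dim.

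NOP58, the scaffold protein of box C/D snoRNPs, had ratios of 0.03 and −0.09 in AT22 over S288C, −0.22 and 0.06 in TAT12 over S288C, −0.13 and −0.31 in TAT12 over TTY23 and −0.10 and 0.18 in TAT12 over AT22. Its means were −0.03 (0.06 turned), −0.08, −0.22 and 0.04, and none was called. NOP10, a small protein of box H/ACA snoRNPs, which guide pseudouridylation, had −0.02 and 0.17 in AT22 over S288C, 0.01 and −0.23 in TAT12 over S288C, 0.10 and −0.03 in TAT12 over TTY23 and −0.03 and −0.12 in TAT12 over AT22, with means of 0.07 (−0.09 turned), −0.11, 0.03 and −0.07. The array values of both genes ran from −0.31 to 0.18. Of the 4 snoRNP genes, with RRP9 as the other, none was above the empty spots in both dyes of both arrays, except for 1 in TAT12 over TTY23, and the class medians were −0.26 (−0.02 turned), 0.11, −0.15 and −0.06 in the order AT22 over S288C, TAT12 over S288C, TAT12 over TTY23 and TAT12 over AT22.

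Further small subunit factors numbered 7, NOP6, NOP14, UTP7, UTP11, UTP14, UTP20 and UTP30, with medians of −0.15 (−0.19 turned), −0.12, −0.04 and −0.04 in the same order. UTP30, a dispensable component of early small subunit precursors with a ribosomal L1 domain, was called in 2 of the 4 comparisons. In AT22 over S288C its ratios were −1.01 and −1.24, mean −1.13 (z-score −3.95), with normalised intensities of 76.7 and 54.7 in AT22 and 155 and 129 in S288C. As labelled, AT22 was not above the empty spots on either array and S288C was on both, which would make the gene at least 1.42-fold lower in AT22. With the second array turned the mean was 0.11 (z-score 0.81), the call was gone and this bound does not hold.

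UTP30 in TAT12 over S288C had ratios of −0.24 and 1.74, mean 0.75 (z-score 4.17), at 110 and 185 in TAT12 and 130 and 55.6 in S288C. The arrays disagreed in sign, and the second array set the sign of the mean. They also disagreed, without a call, in TAT12 over TTY23, at −0.81 and 1.33 (mean 0.26, z-score 1.99), and in TAT12 over AT22, at −1.10 and 0.87 (mean −0.12, z-score −1.35). In each of these 3 comparisons the strain labelled with Alexa555 had the higher UTP30 signal on both arrays.

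UTP7, a WD-repeat protein of the processome, had ratios of 0.30 and 0.18 in AT22 over S288C, −0.01 and −0.23 in TAT12 over S288C, 0.26 and −0.17 in TAT12 over TTY23 and 0.08 and −0.37 in TAT12 over AT22, with means of 0.24 (0.06 turned), −0.12, 0.05 and −0.15. No value of UTP7 passed the threshold. Lower values were held by 2 genes named after their values were seen. UTP11 had −1.47 and −0.17 in TAT12 over S288C (mean −0.82, z-score −1.71) and UTP20 −0.83 and −0.60 (mean −0.71, z-score −1.42). Both were below 0 on both arrays and above the empty spots, and neither was called.

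RRP5 and RRP12 serve both subunits. RRP5, a large RNA-binding protein needed for cuts that lead to both subunits, had ratios of −0.51 and 0.18 in AT22 over S288C, −0.29 and −0.01 in TAT12 over S288C, −0.27 and −0.20 in TAT12 over TTY23 and 0.17 and 0.18 in TAT12 over AT22, with means of −0.16 (−0.35 turned), −0.15, −0.23 and 0.17. It was below 0 on both arrays in TAT12 over S288C and in TAT12 over TTY23, and above 0 on both in TAT12 over AT22, with no call. The values of RRP12, an export factor, lay between −0.42 and 0.17 in mean over the comparisons, 0.15 in AT22 over S288C when turned.

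Large subunit factors formed the biggest class with 17 genes, and none was called in any comparison. Their medians were 0.09 in AT22 over S288C (−0.06 turned), −0.15 in TAT12 over S288C with 14 of 17 below 0, −0.06 in TAT12 over TTY23 with 13 of 17 below 0, and 0.07 in TAT12 over AT22. On both arrays below 0 were 8 of 17 in TAT12 over S288C and 8 of 17 in TAT12 over TTY23. The lowest mean in TAT12 over S288C was that of RLP24 and the highest 0.10.

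RLP24, a ribosomal-like protein that holds the place of Rpl24 on early 60S precursors, had ratios of −0.34 and 0.85 in AT22 over S288C, −1.04 and −0.23 in TAT12 over S288C, −0.26 and −0.27 in TAT12 over TTY23 and 0.35 and 0.21 in TAT12 over AT22, with means of 0.26 (−0.60 turned), −0.64, −0.27 and 0.28. Its mean in TAT12 over S288C was low on both arrays but not called (z-score −1.40), and in AT22 over S288C its arrays had opposite signs. RLP7, a ribosomal-like protein that binds the internal spacer region, had −0.15 and −0.04 in AT22 over S288C, 0.10 and −0.20 in TAT12 over S288C, 0.03 and −0.04 in TAT12 over TTY23 and −0.02 and −0.20 in TAT12 over AT22, with means of −0.10 (−0.05 turned), −0.05, −0.004 and −0.11. The array values of RLP7 ran from −0.20 to 0.10.

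NOP7, the yeast homologue of pescadillo, which works with Erb1 and Ytm1, had ratios of −0.26 and 0.45 in AT22 over S288C, −0.15 and −0.66 in TAT12 over S288C, 0.44 and −0.17 in TAT12 over TTY23 and 0.57 and 0.08 in TAT12 over AT22, with means of 0.09 (−0.36 turned), −0.41, 0.14 and 0.33. NOP2, a methyltransferase of the large rRNA, had 0.24 and −0.23 in AT22 over S288C, −0.23 and −0.07 in TAT12 over S288C, 0.14 and 0.03 in TAT12 over TTY23 and −0.17 and −0.16 in TAT12 over AT22, with means of 0.0017 (0.23 turned), −0.15, 0.09 and −0.17. On both arrays, NOP7 was lower in TAT12 than in S288C and higher than in AT22, while NOP2 was lower in TAT12 than in either. No value of either gene was called.

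NSA1 and NSA2 are parts of 60S precursors. NSA1 had ratios of −0.42 and 0.13 in AT22 over S288C, −0.73 and 0.27 in TAT12 over S288C, −0.24 and −0.22 in TAT12 over TTY23 and 0.24 and 0.20 in TAT12 over AT22, with means of −0.14 (−0.27 turned), −0.23, −0.23 and 0.22. NSA2 had 0.36 and −0.16 in AT22 over S288C, −0.45 and 0.30 in TAT12 over S288C, 0.12 and 0.03 in TAT12 over TTY23 and −0.22 and 0.04 in TAT12 over AT22, with means of 0.10 (0.26 turned), −0.08, 0.08 and −0.09. The arrays of NSA1 split around 0 in both comparisons with S288C, and those of NSA2 split in 3 of the 4 comparisons.

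The exosome contributed 7 genes, with medians of −0.0087 in AT22 over S288C (0.10 turned), 0.03 in TAT12 over S288C, 0.07 in TAT12 over TTY23 and 0.0036 in TAT12 over AT22. RRP6, the nuclear 3′ exonuclease of the complex, had ratios of 0.14 and 0.24 in AT22 over S288C, 0.40 and −0.16 in TAT12 over S288C, 0.19 and −0.06 in TAT12 over TTY23 and 0.22 and −0.18 in TAT12 over AT22, with means of 0.19 (−0.05 turned), 0.12, 0.07 and 0.02. The means were close to 0, while the arrays had opposite signs in each comparison of TAT12. RRP6 was not above the empty spots in both dyes of any swap. RRP45, a subunit of the exosome core, was called in TAT12 over AT22 with 0.36 and 0.27, mean 0.31 (z-score 4.71), but at normalised intensities of 98.0 and 78.8 in TAT12 and 76.5 and 65.3 in AT22 neither strain was above the empty spots, so no fold is given. In AT22 over S288C RRP45 had −0.50 and 0.37 (mean −0.07, and −0.43 with a z-score of −2.21 turned).

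The helicases comprised the 7 DBP genes and RRP3, which unwind RNA duplexes in the precursors, with medians of −0.10 in AT22 over S288C (−0.14 turned), −0.05 in TAT12 over S288C, −0.16 in TAT12 over TTY23 and 0.06 in TAT12 over AT22. DBP2, which also acts in mRNA decay and export, had ratios of −0.10 and 0.02 in AT22 over S288C, −0.21 and −0.38 in TAT12 over S288C, −0.54 and −0.17 in TAT12 over TTY23 and 0.01 and −0.14 in TAT12 over AT22, with means of −0.04 (−0.06 turned), −0.29, −0.35 and −0.06. It was below 0 on both arrays in TAT12 over S288C and in TAT12 over TTY23, without a call.

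DBP3, a helicase of the large subunit pathway, had −0.84 and 0.14 in AT22 over S288C, −0.73 and 0.07 in TAT12 over S288C, −0.34 and 0.04 in TAT12 over TTY23 and −0.01 and 0.36 in TAT12 over AT22, with means of −0.35 (−0.49 turned), −0.33, −0.15 and 0.18. DBP10, which acts on 60S precursors as well, had −0.40 and 0.06 in AT22 over S288C, −0.45 and 0.02 in TAT12 over S288C, −0.32 and 0.08 in TAT12 over TTY23 and −0.12 and 0.49 in TAT12 over AT22, with means of −0.17 (−0.23 turned), −0.21, −0.12 and 0.19. As labelled, both genes were below 0 on the first array and above 0 on the second in every comparison. The Alexa555 channel was then the brighter on all 8 arrays. With the second AT22 over S288C array turned, both genes were below 0 on both arrays of that comparison. Had the dyes of that array been exchanged, Alexa647 would be the brighter on it. DBP8, chosen after its value was seen, passed the threshold only with the second AT22 over S288C array turned, at −0.35 (z-score −2.15), against 0.08 as labelled.

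**Figure D3:**
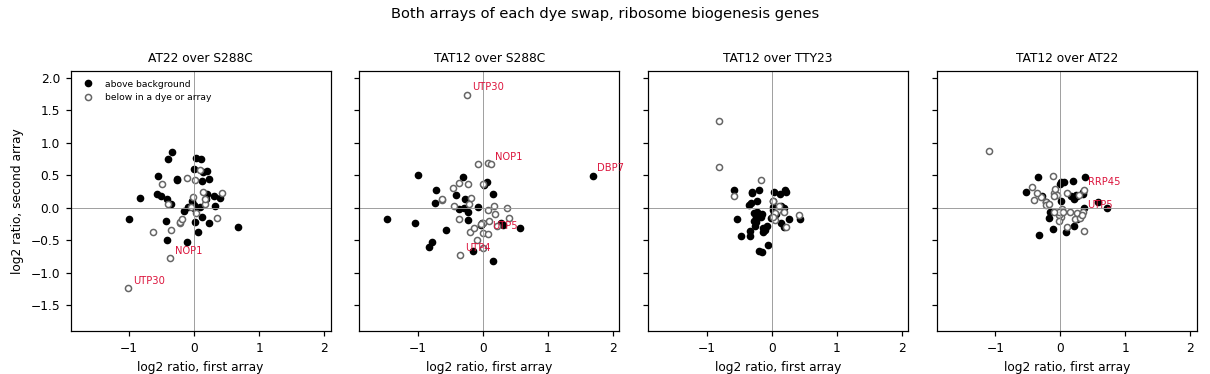
Log2 ratio of each of the 57 genes on the first array (horizontal axis) against the second array (vertical axis) of each comparison, filled where the gene was above the empty spots in both dyes of both arrays and open otherwise, with the called genes named. Points in the upper left or lower right quadrant changed sign between the arrays, as UTP30 did in TAT12 over S288C at −0.24 and 1.74.

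Across the arrays of a swap the members' ratios repeated poorly. Over the 57 members, Pearson's r between the first and the second array was 0.23 in AT22 over S288C (−0.23 turned), 0.04 in TAT12 over S288C, −0.30 in TAT12 over TTY23 and −0.31 in TAT12 over AT22. Over all genes it was −0.03 (0.03 turned), 0.09, 0.13 and −0.17 in the same order. Genes share the array and its background, so these values carry no p. The arrays thus ranked the members weakly alike at best. In TAT12 over TTY23 and TAT12 over AT22 they tended to opposite orders.

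The ratio of the dyes, Alexa647 over Alexa555, was also followed across the arrays. On the 7 arrays other than the second of AT22 over S288C, 13 of 57 members (22.8%, against 15.8% of all genes) kept the same sign of the dye ratio whichever strain carried the dye, 8 of them negative and 5 positive. They include UTP30, UTP5, DBP3, DBP10 and, named after its values were seen, RRP9. On the array left out, 11 of these 13 (84.6%, against 86.2% of the genes of that kind among all) had the opposite sign. Among the members' dye ratios, r between pairs of the 7 arrays had a median of 0.48 (−0.04 to 0.80). Between the array left out and the 7 others it had a median of −0.34 (−0.89 to 0.10). Some of these pairs carry the same strain in the same dye. This r is therefore not set against that between the arrays of a swap.

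**Figure D4:**
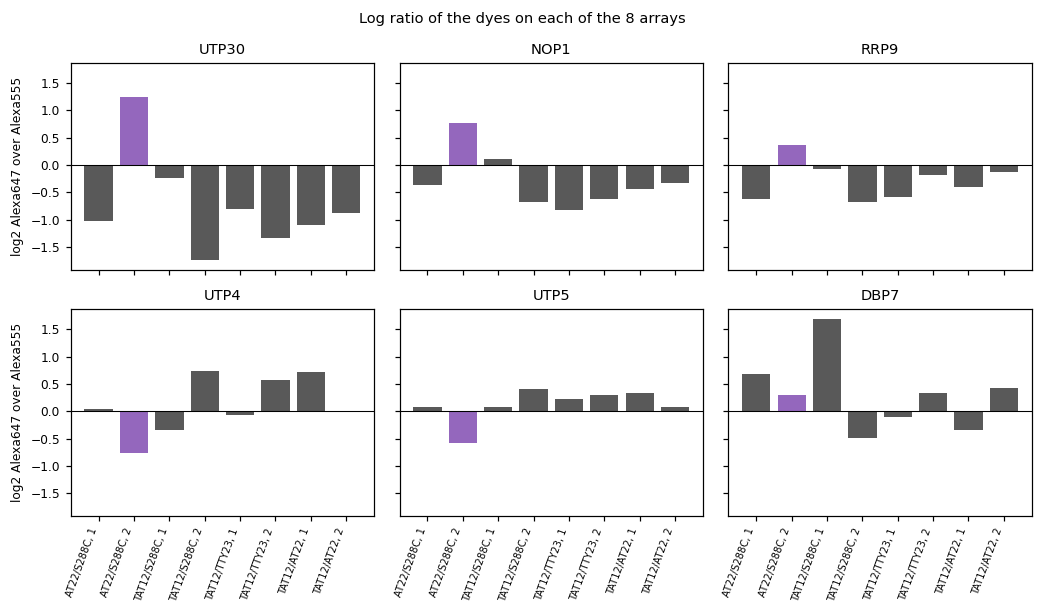
Log2 of Alexa647 over Alexa555 (vertical axis) for UTP30, NOP1, RRP9, UTP4, UTP5 and DBP7 on each of the 8 arrays (horizontal axis, comparison and array number), with the second array of AT22 over S288C in purple. UTP30 and RRP9 lie below 0 and UTP5 above 0 on the 7 grey arrays, and all 3 have the opposite sign on the purple one.

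TAT12 and S288C were also joined by a path through AT22, which adds the ratio of TAT12 to AT22 to that of AT22 to S288C. The members' median was −0.11 directly, 0.08 by that path and −0.04 by that path with the second AT22 over S288C array turned. The median absolute gap between the direct value and the path was 0.31 log2 units, and in 20 of 57 members it was over 0.5. The 4 widest gaps were those of UTP30, at 0.75 directly and −1.24 by the path (−0.0029 turned), UTP4, at −0.54 and 0.76 (−0.0063 turned), DBP7, at 1.09 and −0.18 (0.11 turned), and UTP10, at −0.66 and 0.60 (−0.0072 turned). With the labelled directions, the calls of UTP30, UTP4 and DBP7 in TAT12 over S288C were therefore not matched by the other 2 swaps that join the same strains. Nor were the calls of NOP1, at 0.39 directly and −0.63 by the path (0.15 turned), and UTP5, at −0.16 and 0.47 (−0.11 turned).

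Other genes of the pathway, from a list that holds no member, also had medians near 0. Of 76 further assembly factors 72 were on the array, with medians of 0.02 in AT22 over S288C (−0.03 turned), −0.06 in TAT12 over S288C, −0.0030 in TAT12 over TTY23 and 0.03 in TAT12 over AT22. In that order, 0 were called up and 3 down (0 up and 1 down turned), 1 up and 2 down, 1 up and 0 down, and 4 up and 0 down. The shares of all genes called are those given with the calls of the members. GAR1, a protein of box H/ACA snoRNPs, rose in TAT12 over TTY23, with ratios of 1.00 and 0.79 (mean 0.90, z-score 3.50), and in TAT12 over AT22, with 0.70 and 0.48 (mean 0.59, z-score 2.63), above the empty spots throughout. LTV1, a factor of 40S assembly, fell in TAT12 over S288C, with −0.77 and −0.56 (mean −0.67, z-score −2.12). Both genes, named after their values were seen, kept their sign on both arrays.

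Among 10 regulators of the regulon found on the array, SCH9, the kinase that passes nutrient signals from TORC1 to ribosome genes, fell in TAT12 over S288C (−0.45 and −0.57, mean −0.51, z-score −2.16) and rose in TAT12 over TTY23 (0.72 and 0.29, mean 0.50, z-score 2.53). It was named after its values were seen, and in the first of these comparisons it was not above the empty spots in both dyes of both arrays. The 10 had medians of 0.09 (−0.08 turned), −0.24, −0.07 and 0.09 in the order used above. The 14 genes of RNA polymerase I and its initiation factors had medians of −0.08 (0.06 turned), 0.08, −0.03 and −0.06, with 1 call each in AT22 over S288C (0 turned), TAT12 over S288C and TAT12 over AT22.

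Ribosomal protein and stress genes were set beside the members, since they follow growth and stress. The 139 probes of cytosolic ribosomal proteins had medians of −0.02 in AT22 over S288C (−0.21 turned), 0.08 in TAT12 over S288C, 0.08 in TAT12 over TTY23 and 0.13 in TAT12 over AT22. In that order, 0 were called up and 3 down (0 up and 12 down turned), 1 up and 0 down, 3 up and 0 down, and 16 up and 0 down. Of all genes, 0.537% were called up and 4.09% down (1.2% and 2.83% turned), 3.11% and 1.94%, 3.08% and 2.43%, and 3.38% and 0.9%. The 20 stress genes had medians of −0.0082 (−0.11 turned), 0.25, 0.31 and 0.23, with 19 of 20 above 0 in TAT12 over TTY23. Of these genes 0 were called up and 1 down (0 up and 3 down turned), 4 up and 0 down, 8 up and 0 down, and 5 up and 0 down. In the comparisons of TAT12 with S288C and TTY23 the median of the stress genes thus lay above 0 and that of the biogenesis genes slightly below it. In TAT12 over S288C, 6 of the 20 stress genes were below 0, 4 of them on both arrays. In TAT12 over AT22 both had medians above 0, at 0.23 for the stress genes and 0.04 for the members. The median of the ribosomal protein probes was above 0 in each comparison of TAT12. The part of stress and growth in the result was not tested.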

How the data were processed

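Total RNA of S288C, TTY23, AT22 and TAT12 was compared on 8 two-colour spotted 50-mer arrays, a dye swap for each of 4 comparisons, grouped by the strains and dyes in the labels. For each array the authors deposited raw spot intensities and local backgrounds of both channels, not normalized. The authors also deposited a score per gene, a z-score computed with genArise over both arrays of a swap (its background and normalization steps are not given in the sources used here). The series table holds the same z-scores, with medians of 0.11, 0.0052, −0.029 and −0.10 for AT22 over S288C, TAT12 over S288C, TAT12 over TTY23 and TAT12 over AT22. They correlated positively with the scanner ratios (r from 0.77 to 0.86), which gave their direction, and they were used as an alternative only.

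In limma 3.58.1 (R 4.3.3) the background was corrected by normexp (offset 50, all spots), which understates the ratios of dim spots, and log2 ratios were normalized by loess within each array, with 64 control and 320 empty spots given no weight. Duplicate spots and both arrays of a swap were averaged. The z-score compared a gene with the 100 genes closest to it in intensity (50 above, 50 below), with a threshold of 2, and no p was drawn from it. The limma fit over the 4 dye-swap means adjusted p by Benjamini-Hochberg over all 6336 genes. Python 3.11.15 (numpy 2.4.6, pandas 2.3.3, matplotlib 3.10.9) did the rest. The steps were also run on simulated data. These held no dye effect of single genes and no array with exchanged dyes, so that run says nothing about either.

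The genes named are, per comparison, up to 5 called members with the highest and 5 with the lowest ratio, and 18 members chosen for their role. The members and lists were chosen with earlier results of these data known. Alternatives covered the background, normalization, dim spots, each array alone, the spread behind the z-score, its threshold, the authors' z-scores, the unit of the fit and the direction of 1 array. Promoter sequences were not analysed here. The number of arrays limits the precision, and how many RNA extractions a strain had is not given in the sources used here.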

Additional observations from a re-analysis of the deposited data

Results flagged for a closer look

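UTP4 and NOP1 drew attention because both arrays of AT22 over S288C lay on one side of 0 and both arrays of TAT12 over S288C on the other. The difference between the comparisons, AT22 over S288C minus TAT12 over S288C, was 0.94 for UTP4 and −0.97 for NOP1, and it was not tested. The comparisons share S288C. In the direct comparison TAT12 over AT22, UTP4 had ratios of 0.71 and 0.0025 (mean 0.36) and NOP1 had −0.44 and 0.33 (mean −0.06), without a call. With the sign of the second AT22 over S288C array turned, the arrays of AT22 over S288C no longer lay on one side of 0 for either gene, and the means were −0.36 for UTP4 and 0.20 for NOP1.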

How the results depend on the processing

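No paired analysis was possible because the labels give no replicate numbers and each comparison has 1 sample. No probe of the group names several genes, so leaving out such probes changed nothing, and promoter motifs were not analysed here. The number of members called in AT22 over S288C was 2, and it became 1 with only genes above the empty spots, 5 with the second array turned, 21 at a z-score threshold of 1 and 1 at a fold change of 1.5. In TAT12 over S288C it was 5, and 2 with local background subtracted, 1 with only genes above the empty spots, 3 from the first array alone, 2 from the second array alone, 0 by the authors' z-scores and 20 at a threshold of 1. In TAT12 over TTY23 it was 0, and 1 without background correction, 2 with local background subtracted, 1 with only genes above the empty spots, 5 from the first array alone, 3 from the second, 2 with the spread of all genes and 18 at a threshold of 1. In TAT12 over AT22 it was 2, and 0 with only genes above the empty spots, 5 from the first array alone, 19 at a threshold of 1 and 0 at a fold change of 1.5. A fold change of 1.5 was reached by 3.19% of all genes in AT22 over S288C and 1.15% in TAT12 over AT22. With the array turned, 4.02% of all genes were called in AT22 over S288C. For the other settings the share of all genes is not given. Those counts show only how the calls depend on the setting.

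The members' medians moved by less than the spread between arrays (the standard deviation of the 2 array medians) in 21 of 25 alternatives. The exceptions were −0.029 in TAT12 over S288C from the second array alone (−0.11 from both), −0.13 in TAT12 over TTY23 both with only genes above the empty spots and from the first array alone (−0.06 from all), and 0.17 in TAT12 over AT22 with only genes above the empty spots (0.04 from all). A median from a single array tends to stay within that spread, so the count says little about those settings. In AT22 over S288C the median of 0.02 still changed sign, to −0.02 from the first array alone and −0.05 with the second array turned. Over the 9 called values and 57 alternatives, 32 kept the call, 20 lost it and 5 changed sign. The sign changes were those of NOP1 (0.20) and UTP30 (0.11) in AT22 over S288C with the second array turned, UTP30 (−0.24) and UTP5 (0.074) in TAT12 over S288C from the first array alone, and UTP5 (−0.072) in TAT12 over AT22 from the second array alone. DBP7 had a z-score of 1.99 in the authors' table, short of the threshold. The count of 0 in the limma fit stood in the fit over 8 arrays and with the array turned. The causes were not tested.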
